A study of Homo sapiens with 12 samples.

Results

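Transcripts of the CoREST corepressor and of its GFI1-type recruiters were followed through LSD1 inhibition in 2 small cell lung cancer lines. The set holds 9 genes, chosen by symbol among the 56508 symbols measured. They are the scaffold genes RCOR1, RCOR2 and RCOR3, the deacetylase genes HDAC1 and HDAC2, the subunit genes HMG20B and PHF21A, and the recruiter genes GFI1 and GFI1B. The study compared messenger RNA of the H211 and H82 lines grown with ORY-1001, an inhibitor of LSD1, or with vehicle. The 4 groups were H211 with 1 µM ORY-1001, H211 control, H82 with 1 µM ORY-1001 and H82 control, with 3 libraries each. Controls are labelled PBS, both lines are labelled as wild type in genotype, and all groups share serum-supplemented RPMI medium. Sample labels give 7 days of exposure and the protocol gives 10 days, which was not settled here. Each line is 1 established cell line, so a difference between H211 and H82 is a difference between 2 lines and not between classes of tumour. Nothing in the labels says that replicates came from separate cultures, so p-values measure the spread between these libraries, which may be technical.

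LSD1, encoded by KDM1A, removes methyl groups from lysine 4 of histone H3. It works on nucleosomes when held by an RCOR scaffold, which also carries HDAC1 or HDAC2, so that deacetylation and demethylation of the same histone tails are coupled. PHF21A reads unmethylated lysine 4, and HMG20B carries an HMG box. GFI1 and GFI1B are zinc finger repressors whose SNAG domain resembles the histone H3 tail and docks in the catalytic pocket of LSD1; both are known from blood cell development, and in mice GFI1B is also known from tuft cells.

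The upstream sequences of the recruiter genes are shown because GFI1B was the member with the largest drug response, and because GFI1 and GFI1B bind DNA through the core letters AATC. Sequences are from RefSeq on GRCh38.p14, written 5′ to 3′ on the strand of the gene, and cover 250 bases before a transcript start. Capitals mark AATC or its reverse complement GATT.
GFI1B, chr9:132978444-132978693, plus strand: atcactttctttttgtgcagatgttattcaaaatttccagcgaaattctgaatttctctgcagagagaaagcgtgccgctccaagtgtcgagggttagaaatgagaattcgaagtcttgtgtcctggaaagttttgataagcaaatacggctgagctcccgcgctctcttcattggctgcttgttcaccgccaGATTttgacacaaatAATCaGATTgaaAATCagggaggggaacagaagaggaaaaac
GFI1B, chr9:132945281-132945530, plus strand: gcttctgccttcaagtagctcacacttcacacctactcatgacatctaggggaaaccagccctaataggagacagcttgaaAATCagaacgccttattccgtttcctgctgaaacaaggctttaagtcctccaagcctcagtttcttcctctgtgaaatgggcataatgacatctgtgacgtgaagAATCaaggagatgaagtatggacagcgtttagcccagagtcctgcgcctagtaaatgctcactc
GFI1, chr1:92486926-92487175, minus strand: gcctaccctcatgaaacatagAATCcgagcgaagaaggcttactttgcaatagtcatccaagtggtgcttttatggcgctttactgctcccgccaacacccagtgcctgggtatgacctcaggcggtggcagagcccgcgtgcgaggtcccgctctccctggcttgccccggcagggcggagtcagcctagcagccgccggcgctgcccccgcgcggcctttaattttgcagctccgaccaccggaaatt
The GFI1B window starting at 132978444 holds AATC or GATT at 4 places, that starting at 132945281 at 2 places, and the GFI1 window shown at 1 place. Of the other 2 GFI1 windows of 250 bases, not printed, 1 held a single match and 1 held 0. Over the full windows of 300 bases, which run 50 bases past the start, 4 or more such places occurred in 9.95% of the 35116 promoters in the table, and at least 1 in 69.0%. Of the 14 windows of the 8 members in the table, 11 held AATC on either strand and 0 held the longer AAATCAC on either strand, which 3.14% of all promoters held. The 3 PHF21A windows held no AATC. Each AAATCAC match would also count as an AATC match. A match of letters is a description of these windows and shows no binding.

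Values are TPM as deposited, which appear to have been rescaled between libraries (rescaled TPM), so levels can be compared between genes per length. Column totals ran from 967415 to 1111988, and replicates of a group correlated at 0.9881 to 0.9912 in log2 values. Differences are on the log2(rescaled TPM + 1) scale, with an SE or a 95% interval from 1 limma fit to all 12 libraries, and "called" means a two-sided Benjamini-Hochberg adjusted p under 0.05 over the 15456 genes tested. ORY-1001 changed 2868 genes in H211, 1383 higher and 1485 lower. In H82 it changed 6643 genes, 2949 higher and 3694 lower. The split of calls moved with scaling: with totals taken without mitochondrial genes, 961 were higher and 2016 lower in H211, and 7007 were higher and 5440 lower between the H211 and H82 controls, where 6139 and 6303 had been called. Most markers of tuft-like and neuroendocrine states differed between the lines in the direction of their state, but not all. Between controls, 9 of 11 tested tuft cell markers were called higher and 2 lower in H211. Of 11 tested neuroendocrine markers, 0 were higher and 11 lower in H211. Of all tested genes, 39.7% were higher and 40.8% lower. POU2F3, the tuft cell master regulator, was at 285, 281 and 277 in H211 controls and at 2.72, 1.78 and 2.42 in H82 controls. NEUROD1, a neuronal bHLH factor, was at 1.40, 2.10 and 1.56 in H211 controls and at 138, 135 and 139 in H82 controls. Transcripts of blood cells varied between single libraries of 3 groups, and their values stand beside GFI1B below.

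KDM1A, the target of the drug, was at 183, 189 and 193 rescaled TPM in H211 with ORY-1001, against 182, 184 and 187 in H211 controls. In H82 it was at 181, 195 and 195 with ORY-1001, against 182, 184 and 187 in controls. The groups overlapped in both lines, with log2 differences of 0.03 (95% interval -0.05 to 0.11) in H211 and 0.05 (-0.04 to 0.13) in H82. Between controls of the lines the log2 difference in KDM1A was 0.00, with an interval of -0.08 to 0.08. It was 0.13 (limma, adjusted p = 0.0432) when libraries were scaled to a total of 1000000 and 0.19 (adjusted p = 0.00551) with totals taken without mitochondrial genes. The drug acts on the enzyme, so transcript levels do not check whether it was inhibited.

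GFI1B rose in H211 with the inhibitor, HDAC1 fell there, and the other 7 members were not called. In H82 HDAC2 and PHF21A fell, HMG20B rose, and the other 6 were not called. Thus 2 of 9 members were called in H211, 1 higher and 1 lower, where 18.6% of all tested genes were called, 8.95% higher and 9.61% lower. In H82 3 of 9 were called, 1 higher and 2 lower, where 43.0% of genes were, 19.1% higher and 23.9% lower. Neither share of members lies far from its background. The response differed between the lines by call for 5 of 9 members, 3 above 0 and 2 below for H211 minus H82, where 32.1% of all genes were called, 17.8% above 0 and 14.3% below. Libraries of drug and control did not overlap for 3 of 9 members in H211, where 35.4% of genes did not overlap, and for 3 of 9 in H82, where 52.3% did not. The median log2 difference over the 9 members was -0.04 in H211, where that of all genes was 0.00, and -0.05 in H82, where that of all genes was -0.02. All 9 members passed the filter on low values, 2 of them, GFI1 and GFI1B, through their H211 libraries alone.

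**Figure D1:**
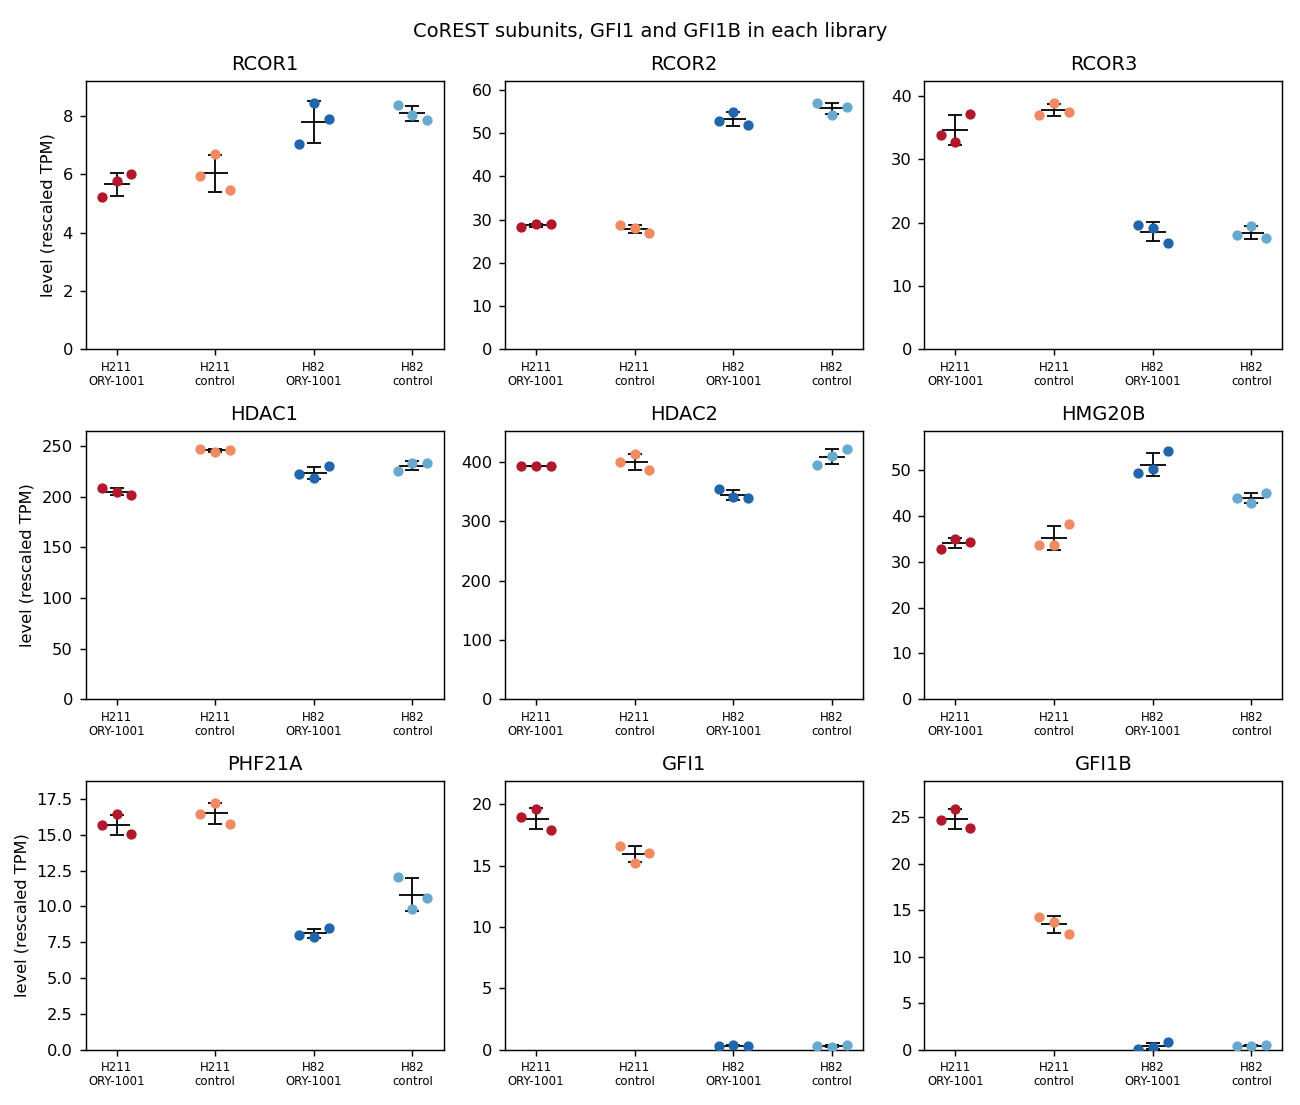
Level of each member in rescaled TPM in the 12 libraries; points are libraries, bars are the group mean ± SD (n = 3), and each vertical axis starts at 0. GFI1B lies between 23.8 and 25.9 in H211 with ORY-1001 and between 12.5 and 14.3 in H211 controls, while GFI1 and GFI1B stay under 1 in H82.

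**Figure D2:**
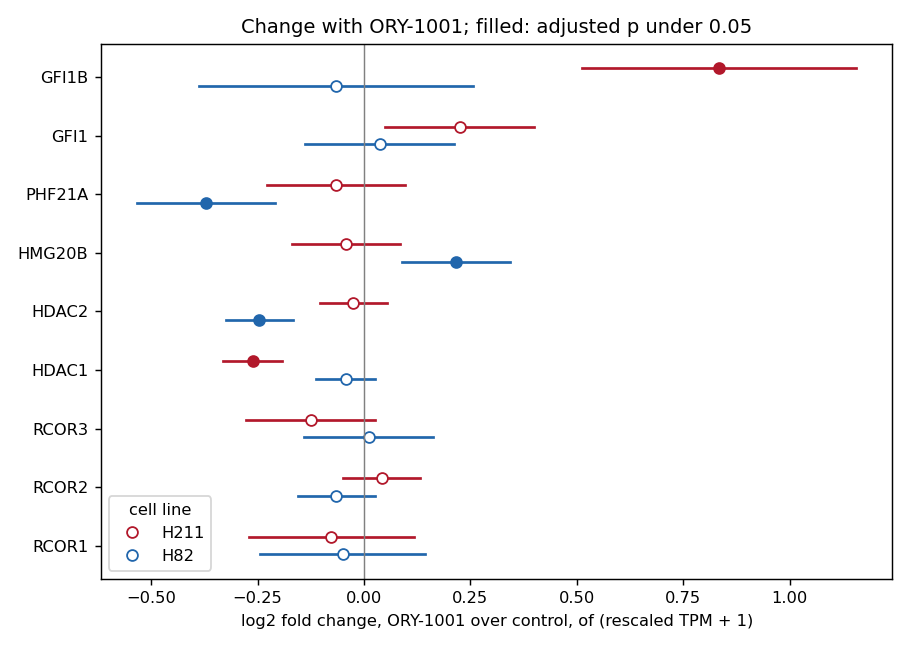
Log2 difference of rescaled TPM + 1, ORY-1001 over control, for each member in H211 and H82, with 95% intervals from limma; filled points have an adjusted p under 0.05. GFI1B at 0.83 in H211 is the largest, and the called members of one line are uncalled in the other.

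GFI1B, a SNAG-domain repressor of erythroid and megakaryocyte cells, gave the largest response of the set. Its levels were 24.7, 25.9 and 23.8 rescaled TPM in H211 with ORY-1001, against 14.3, 13.7 and 12.5 in H211 controls. All 3 treated libraries lay above all 3 controls, and the means of 24.8 ± 1.05 and 13.5 ± 0.927 (SD, n = 3 each) differed 1.84-fold. The log2 difference was 0.83 (SE 0.146, limma, adjusted p = 0.00252). With a pseudocount of 0.1 the adjusted p was 0.161, and it was under 0.05 in the other 24 of 25 alternatives. In H82 GFI1B was barely detected, at 0.104, 0.246 and 0.792 with ORY-1001, against 0.402, 0.387 and 0.456 in controls. The H82 groups overlapped (log2 difference -0.07, 95% interval -0.39 to 0.26), and without the treated library at 0.792 the log2 difference was -0.27, with an adjusted p of 0.0415 in limma. The response in H211 minus that in H82 was 0.90 (SE 0.207, limma, adjusted p = 0.00674), and its adjusted p was 0.119 with a pseudocount of 0.1. Adding 1 to H82 levels under 1 flattens any change there, and GFI1B passed the filter through H211 alone, so this difference largely restates the H211 response and shows nothing of the response in H82.

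The GFI1B gene overlaps TSC1, which lies on the opposite strand and encodes a subunit of the complex that restrains mTORC1. The overlap covers 349 of the 6104 exonic bases of GFI1B in GENCODE 29 (5.72%). The sources used here do not state whether reads were assigned by strand, and without strand the reads of this stretch cannot be told apart. TSC1 was at 11.6, 10.1 and 9.39 rescaled TPM in H211 with ORY-1001, against 5.55, 4.40 and 4.86 in H211 controls, and the groups did not overlap. Its log2 difference was 0.94 (SE 0.103, limma, adjusted p = 9.78e-05). In H82 TSC1 was at 12.3, 12.2 and 11.2 with ORY-1001, against 12.7, 11.5 and 10.1 in controls, beside GFI1B levels under 1. TSC1 and GFI1B were thus both higher in treated H211, and the part of one in the reads of the other was not tested.

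Transcripts of erythroid cells, which express GFI1B, were present at uneven levels. HBG2, a fetal globin, was at 22.3, 16.8 and 0 in H211 with ORY-1001, against 47.4, 40.6 and 18.7 in H211 controls. In H82 HBG2 was at 0, 0.12 and 53.0 with ORY-1001, against 23.9, 28.2 and 22.4 in controls. The treated H82 library with the highest HBG2 was thus also the one with the highest GFI1B. In H211 the treated library with HBG2 listed at 0 had 23.8 of GFI1B, and all controls held HBG2. Over the 20 erythroid and megakaryocyte markers, 8 passed the filter and 0 of 8 were called by limma in either line, 1 was at 0 in every library, and the summed level ran from 1.87 to 66.6 in H211 with ORY-1001, from 59.6 to 199 in H211 controls, from 5.29 to 219 in H82 with ORY-1001 and from 68.7 to 84.6 in H82 controls. Over the 14 myeloid and leukocyte markers, of which none was at 0 throughout, the sum ran from 19.2 to 55.4 in H211 with ORY-1001, from 27.4 to 198 in H211 controls, from 41.1 to 49.3 in H82 with ORY-1001 and from 19.6 to 23.4 in H82 controls. MPO, myeloperoxidase of granulocytes, was at 8.71, 8.55 and 24.3 in H82 with ORY-1001, against 0.0849, 0.0377 and 0.0284 in H82 controls, and was called. Outside treated H82, MPO reached 1 in only 1 library of each H211 group. It thus passed the filter only with the group where it was high, and its call is no support of its own. LYZ, lysozyme, was at 16.0, 18.7 and 0.583 in H82 with ORY-1001, against no more than 0.363 in H82 controls. TYROBP, a leukocyte adaptor, reached 10.9 in a single H211 control library and was at 0 in all H82 controls. The treated H211 library with HBG2 at 0 was not free of blood transcripts. It held 8.57 of MPO and 16.0 of LYZ, against no more than 0.207 and 0.356 in the other treated H211 libraries. The part of blood cells in the GFI1B values was not tested. The 4 libraries that differed in these transcripts from the rest of their own group were left out in an alternative (H82 with ORY-1001 replicate 3, H211 with ORY-1001 replicate 3 and H211 control replicates 1 and 2). The H82 libraries it keeps still differ in MPO, LYZ and HBG2 between drug and control, so it does not even out the blood transcripts. There the GFI1B difference in H211 was 0.97 (limma, adjusted p = 0.0160), with the lone remaining control library assumed to vary like the other groups. Members called then numbered 2 in H211 and 3 in H82. In these bulk cultures, fewer cells of a type and less RNA per cell cannot be told apart.

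**Figure D3:**
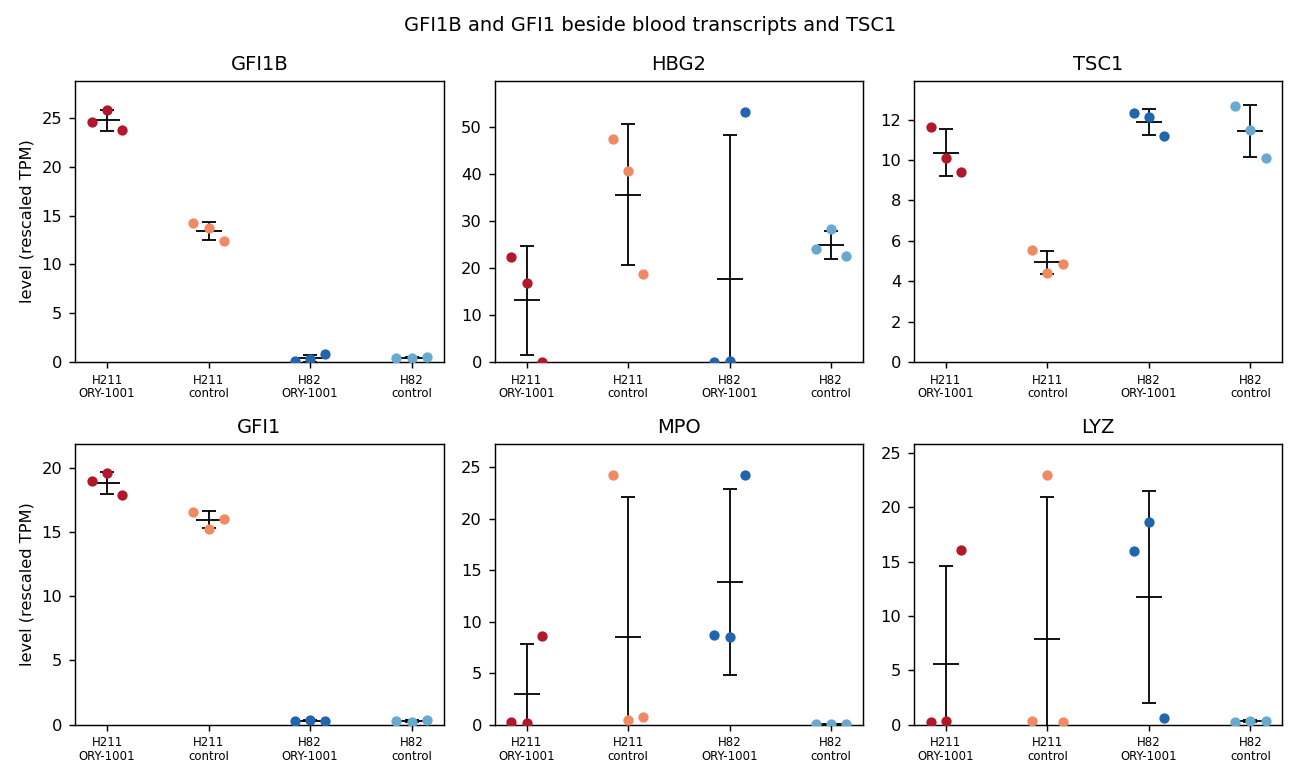
Levels in rescaled TPM of GFI1B and GFI1 beside the blood transcripts HBG2, MPO and LYZ and the overlapping gene TSC1; points are libraries, bars the group mean ± SD (n = 3), axes starting at 0 and cutting any bar that reaches lower. HBG2 is at 0 in 1 treated H211 library where GFI1B is 23.8, MPO 8.57 and LYZ 16.0. TSC1 lies between 9.39 and 11.6 in treated H211 and between 4.40 and 5.55 in H211 controls.

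GFI1, the myeloid and lymphoid paralogue of GFI1B, was at 18.9, 19.6 and 17.9 rescaled TPM in H211 with ORY-1001, against 16.6, 15.2 and 16.0 in H211 controls. The treated libraries all lay above the controls, with a ratio of means of 1.18. The log2 difference of 0.22 (SE 0.0799) was not called by limma (adjusted p = 0.0746), and the adjusted p was under 0.05 in 3 of 25 alternatives. In H82 GFI1 was at 0.289, 0.352 and 0.279 with ORY-1001, against 0.315, 0.176 and 0.334 in controls, a level at which no direction was read. The difference between the 2 responses was 0.19 (95% interval -0.06 to 0.44). Summed over both recruiters, H211 held 43.6 ± 1.90 with ORY-1001 and 29.4 ± 1.23 in controls (SD, n = 3 each). GFI1B made up 56.6%, 56.9% and 57.1% of that sum in H211 with ORY-1001 and 46.2%, 47.4% and 43.7% in H211 controls, so GFI1B was the more abundant recruiter with the drug and GFI1 without it. This difference of 11.1 percentage points had p = 0.1 in a two-sided exact permutation test, the smallest p that 3 against 3 libraries allow. In H82 the GFI1B share came from levels under 1 and ran from 26.5% to 73.9% with ORY-1001 and from 56.0% to 68.7% in controls.

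HDAC1, one of the 2 deacetylases that CoREST shares with the NuRD and SIN3 complexes, was at 208, 204 and 202 rescaled TPM in H211 with ORY-1001, against 247, 244 and 246 in H211 controls. No treated library reached a control, and the mean was 1.20-fold lower. The log2 difference was -0.26 (SE 0.0313, limma, adjusted p = 0.000191), and it was called in 25 of 25 alternatives. In H82 HDAC1 was at 222, 218 and 230 with ORY-1001, against 225, 233 and 233 in controls, overlapping groups with a log2 difference of -0.04 (95% interval -0.11 to 0.03). With quantile normalization that H82 difference was -0.10 and called (limma, adjusted p = 0.0274). The H211 response minus the H82 response was -0.22 (SE 0.0443, limma, adjusted p = 0.00337), and -0.19 with an adjusted p of 0.0814 without those 4 libraries.

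HDAC2, the paralogue of HDAC1, was called in the other line. In H82 it was at 354, 340 and 339 rescaled TPM with ORY-1001, against 395, 410 and 421 in controls. Every treated library was below every control, 1.19-fold in the means, with a log2 difference of -0.25 (SE 0.0359, limma, adjusted p = 0.000233) that was called in 25 of 25 alternatives. In H211 HDAC2 was at 393, 392 and 393 with ORY-1001, against 399, 413 and 387 in controls. The 3 treated H211 libraries lay inside the range of the controls, with a difference of -0.02 (95% interval -0.10 to 0.05). The responses differed by 0.22, H211 minus H82 (SE 0.0508, limma, adjusted p = 0.00677), and the adjusted p was 0.0657 when libraries were scaled to a total of 1000000.

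The deacetylase sum was 597 ± 3.21 in H211 with ORY-1001, against 645 ± 12.4 in H211 controls, and 568 ± 8.60 in H82 with ORY-1001, against 639 ± 17.2 in H82 controls (SD, n = 3 each). The sum was lower in all treated libraries than in any control of the same line. Its make-up moved in opposite directions. HDAC2 made up 65.4%, 65.8% and 66.1% in H211 with ORY-1001 and 61.8%, 62.9% and 61.2% in H211 controls. In H82 it made up 61.4%, 60.9% and 59.6% with ORY-1001 and 63.7%, 63.8% and 64.3% in controls. The shift was 3.802 percentage points in H211 and -3.31 in H82, each with an exact two-sided permutation p of 0.1, the smallest that 1 line allows. Averaged over both lines it was 0.248 points (two-sided exact permutation test within lines, p = 0.815, adjusted over 3 shares 0.83). The difference between lines, a test added after the values were seen, was 7.11 points (two-sided exact permutation test, p = 0.005, the smallest it can give, adjusted over 3 shares 0.015).

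**Figure D4:**
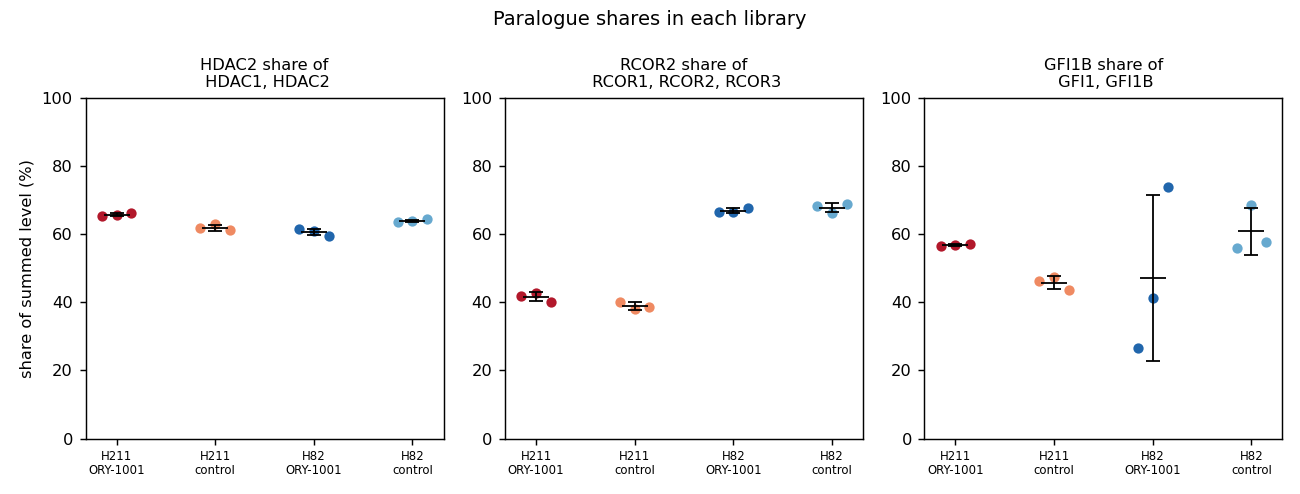
Share of HDAC2 in HDAC1 plus HDAC2, of RCOR2 in the 3 RCOR genes and of GFI1B in GFI1 plus GFI1B, in percent of the summed rescaled TPM; points are libraries, bars the group mean ± SD (n = 3), with axes from 0 to 100. The HDAC2 share is higher with ORY-1001 in H211 (65.7% and 61.9%) and lower in H82 (60.6% and 63.9%), and the wide H82 bars for GFI1B rest on levels under 1.

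PHF21A, the histone H3 reader of the complex, fell in H82. It was at 8.03, 7.84 and 8.49 rescaled TPM with ORY-1001, against 12.1, 9.83 and 10.6 in H82 controls. The groups did not overlap and the mean was 1.33-fold lower, with a log2 difference of -0.37 (SE 0.0739, limma, adjusted p = 0.00186). In H211 PHF21A was at 15.7, 16.4 and 15.0 with ORY-1001, against 16.5, 17.2 and 15.8 in controls, with overlap and a difference of -0.07 (95% interval -0.23 to 0.10). The difference between the responses was 0.31 (SE 0.105, limma, adjusted p = 0.0445) and lay near the threshold, since it was called in only 9 of 24 alternatives.

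HMG20B, the HMG-box subunit, was the member that rose in H82. Its levels were 49.2, 50.1 and 54.0 rescaled TPM with ORY-1001, against 43.8, 42.8 and 44.9 in H82 controls. The groups did not overlap and the means differed 1.17-fold, with a log2 difference of 0.22 (SE 0.0574, limma, adjusted p = 0.0103). In H211 it was at 32.8, 34.9 and 34.3 with ORY-1001, against 33.5, 33.7 and 38.2 in controls (log2 difference -0.04, 95% interval -0.17 to 0.08). The responses differed by -0.26, H211 minus H82 (SE 0.0812, limma, adjusted p = 0.0312), a call made in 17 of 24 alternatives. HMG20B shares 369 of its 3857 exonic bases (9.57%) with MFSD12, a transporter gene on the opposite strand. MFSD12 also rose in H82, at 51.8, 50.6 and 54.0 with ORY-1001 against 40.2, 38.2 and 36.9 in controls (log2 difference 0.43, limma, adjusted p = 2.06e-05), and its part in the HMG20B value was not tested.

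The 3 scaffold genes were not called for the drug in either line, in the main fit or in any of 25 alternatives each. RCOR1, the founding CoREST scaffold, was at 5.23, 5.76 and 6.003 in H211 with ORY-1001, against 5.93, 6.71 and 5.47 in H211 controls. In H82 RCOR1 was at 7.03, 8.45 and 7.91 with ORY-1001, against 8.37, 8.04 and 7.87 in controls. Treated and control libraries overlapped in both lines, with 95% intervals of -0.27 to 0.12 in H211 and -0.24 to 0.14 in H82. RCOR2, a paralogue known from mouse neural and stem cells, was at 28.3, 28.9 and 28.99 in H211 with ORY-1001, against 28.8, 28.0 and 26.9 in H211 controls. In H82 RCOR2 was at 52.8, 55.0 and 51.9 with ORY-1001, against 56.9, 54.3 and 56.0 in controls. These groups overlapped as well, with intervals of -0.05 to 0.13 in H211 and -0.16 to 0.03 in H82. RCOR3, the third paralogue, was at 33.9, 32.7 and 37.3 in H211 with ORY-1001, against 37.0, 38.9 and 37.5 in H211 controls. In H82 RCOR3 was at 19.7, 19.2 and 16.8 with ORY-1001, against 18.1, 19.6 and 17.6 in controls. A single treated H211 library, at 37.3, reached the controls, and the intervals were -0.28 to 0.03 in H211 and -0.14 to 0.16 in H82.

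Summed over the 3 scaffolds, the level was 69.0 ± 2.80 in H211 with ORY-1001, 71.7 ± 1.86 in H211 controls, 79.6 ± 2.99 in H82 with ORY-1001 and 82.2 ± 1.015 in H82 controls (SD, n = 3 each). KDM1A stood above this sum in every library, by a ratio of 2.73 ± 0.0655 in H211 with ORY-1001, 2.58 ± 0.0958 in H211 controls, 2.39 ± 0.135 in H82 with ORY-1001 and 2.24 ± 0.0562 in H82 controls. HDAC1 and HDAC2 together exceeded KDM1A by a ratio of 3.17 ± 0.0959 in H211 with ORY-1001, 3.50 ± 0.107 in H211 controls, 2.99 ± 0.172 in H82 with ORY-1001 and 3.47 ± 0.05004 in H82 controls. Among the scaffold sum, KDM1A and the deacetylase sum, the first was thus lowest per length and the last highest. The subunit genes HMG20B and PHF21A lay below the scaffold sum, with highest group means of 51.1 and 16.5. RCOR2 made up 41.7% ± 1.41 of the scaffold sum in H211 with ORY-1001, 38.9% ± 1.12 in H211 controls, 66.9% ± 0.735 in H82 with ORY-1001 and 67.8% ± 1.29 in H82 controls. Its mean shift with the drug was 0.947 percentage points (two-sided exact permutation test within lines, p = 0.32, adjusted over 3 shares 0.83), and the smallest p that test can give is 0.005. Its shift differed between lines by 3.66 points (two-sided exact permutation test, p = 0.04, adjusted over 3 shares 0.06).

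Between controls, 8 of 9 members were called, 5 higher and 3 lower in H211, where 80.5% of all tested genes were called, 39.7% higher and 40.8% lower. Of the 9, 8 did not overlap, where 81.7% did not. Between the treated groups, 9 of 9 were called, 5 higher and 4 lower in H211, where 80.2% of genes were called, 39.7% higher and 40.6% lower. All 9 did not overlap, where 81.0% did not. GFI1 and GFI1B entered the fit through H211 alone and so had to differ. Outside those genes, 6 of 7 were called between controls, 3 higher and 3 lower, and 7 of 7 between treated groups, 3 higher and 4 lower. These shares lie close to the background.

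The switch of scaffold was the clearest contrast outside the recruiters. RCOR3 was higher in the H211 controls at 37.8 ± 0.979, against 18.4 ± 1.02 in the H82 controls (SD, n = 3 each), a log2 difference of 1.00 (SE 0.0690, limma, adjusted p = 5.93e-08). RCOR2 was lower in the H211 controls at 27.9 ± 0.958, against 55.7 ± 1.31 in the H82 controls, a log2 difference of -0.97 (SE 0.0410, limma, adjusted p = 6.64e-10). RCOR1 was 1.34-fold lower in the H211 controls (log2 difference -0.37). PHF21A was 1.52-fold higher and HMG20B 1.25-fold lower in the H211 than in the H82 controls, with log2 differences of 0.57 and -0.31. With totals taken without mitochondrial genes, the calls of RCOR1 (limma, adjusted p = 0.0777) and HMG20B (0.0653) between controls were lost. HDAC1 was 1.07-fold higher in the H211 than in the H82 controls (log2 difference 0.09, limma, adjusted p = 0.0177), called in 20 of 25 alternatives, and the order of the lines was opposite with ORY-1001 (log2 difference -0.13, limma, adjusted p = 0.00284), where totals without mitochondrial genes gave 0.00. HDAC2 did not differ by call between controls (log2 difference -0.03, limma, adjusted p = 0.434), and was 1.14-fold higher in H211 than in H82 with ORY-1001. With totals taken without mitochondrial genes the HDAC2 difference between controls was 0.15 (limma, adjusted p = 0.00423), while the median over all genes stood at 0.14 under that scaling.

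GFI1 was 57.9-fold and GFI1B 32.5-fold higher in the H211 than in the H82 controls, from H82 levels of 0.275 ± 0.0862 and 0.415 ± 0.0363 (SD, n = 3). Ordered by level, the groups fell into line blocks for RCOR1, RCOR2, RCOR3, HMG20B, PHF21A, GFI1 and GFI1B, with no overlap between a library of H211 and one of H82. Within those blocks drug and control groups overlapped for RCOR1, RCOR2 and RCOR3 in both lines. HDAC1 and HDAC2 showed no such blocks. For HDAC1 the H211 controls lay highest and the treated H211 libraries lowest, with both overlapping H82 groups between them. For HDAC2 the treated H82 libraries lay below all others, and the other 3 groups overlapped with their neighbours.

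The genes most like each member were taken by Pearson's r of log2(rescaled TPM + 1) over the 12 libraries, which share 2 lines and 2 treatments, so that a gene differing between lines scores high. GFI1 was matched by PCDH20 (r = 0.9995) and NQO1 (0.9994), and GFI1B by CTXN1 (0.9979) and NRP1 (0.9977). NRP1 averaged 25.9 in H211 with ORY-1001, 16.1 in H211 controls, 0.286 in H82 with ORY-1001 and 0.223 in H82 controls, close to the GFI1B means of 24.8, 13.5, 0.381 and 0.415. RCOR2 was matched by NPR2 and CYP1B1 (both 0.9984), RCOR3 by TMEM80 (0.9953) and TFF3 (0.9943), and RCOR1 by ZNF770 (0.9703) and CHERP (0.9698). PHF21A was matched by CORO1B (0.9939) and TBC1D24 (0.9912), and HMG20B by CROCCP2 (0.9861) and MTFMT (0.9858). The deacetylases had the lowest best values, PCSK5 (0.9386) and PLA2G4A (0.9359) for HDAC1 and SEC61A1 (0.9563) and AEBP1 (0.9536) for HDAC2.

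Among 9 further partners of the complex, KDM1A included, 0 were higher and 3 lower in H211, and 0 were higher and 5 lower in H82. That is 33.3% in H211, where 18.6% of all genes were called, and 55.6% in H82, where 43.0% were. Their median log2 difference was -0.09 in H211 and -0.23 in H82. CTBP2, a corepressor that binds PxDLS motifs, was lower in both lines. It was at 31.1, 35.0 and 32.1 in H211 with ORY-1001, against 37.9, 38.7 and 38.1 in H211 controls (log2 difference -0.22, limma, adjusted p = 0.0139), and at 45.5, 49.0 and 49.8 in H82 with ORY-1001, against 56.7, 60.5 and 58.2 in H82 controls (-0.28, adjusted p = 0.00130). Its paralogue CTBP1 was at 115, 127 and 136 in H82 with ORY-1001, against 177, 190 and 174 in H82 controls, 1.43-fold lower in the means. ZMYM3, a zinc finger protein of the complex, was 1.39-fold lower in H82 with ORY-1001. In H211 RREB1, a zinc finger factor that binds CtBP, was 1.82-fold lower, and ZMYM2 was 1.20-fold lower with an adjusted p of 0.0466 in limma that passed the threshold by little. Between controls, ZNF217, a zinc finger factor, was 4.57-fold lower in H211 than in H82.

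Of 16 other DNA-binding factors known to bind LSD1 or CoREST or to carry a SNAG-type N terminus, 11 were tested. In H211 5 were higher and 0 lower, with a median of 0.24. In H82 1 was higher and 1 lower, with a median of -0.03. Of all genes, 18.6% were called in H211 and 43.0% in H82. OVOL1, an epithelial SNAG-domain factor, was at 1.80, 2.29 and 1.80 rescaled TPM in H211 with ORY-1001, against 0.281, 0.353 and 0.385 in H211 controls (log2 difference 1.14, limma, adjusted p = 1.11e-05). OVOL1 reached 1 only in these treated libraries. It thus passed the filter through the group where it was high, and its p-value is no support of its own. ZEB1, a driver of mesenchymal change that represses through CtBP, was at 3.42, 4.40 and 3.53 in H211 with ORY-1001, against 1.12, 1.46 and 1.49 in H211 controls (log2 difference 1.02, limma, adjusted p = 5.70e-05). OVOL2, a paralogue of OVOL1, was 1.42-fold higher there. None of these 3 genes, named for their small p, overlapped between treated and control H211 libraries, where 35.4% of all tested genes did not overlap. In H82 SNAI1, a SNAG-domain repressor of epithelial genes, was at 46.0, 48.0 and 45.2 with ORY-1001, against 18.9, 18.4 and 17.2 in controls (log2 difference 1.31, limma, adjusted p = 1.24e-07). SNAI1 was also higher in H211, at 7.98, 9.38 and 8.39 with ORY-1001, against 6.73, 7.20 and 7.49 in controls, without overlap (log2 difference 0.23, limma, adjusted p = 0.0317). SNAI2, its paralogue, was 2.02-fold higher in H211 with ORY-1001 (limma, adjusted p = 0.0393). SNAI2 was at 1.95, 1.68 and 1.83 there, against 0.402, 0.728 and 1.57 in H211 controls, and under 1 in every H82 library. It thus passed the filter through H211 alone, above all the treated libraries. Both OVOL1 and SNAI2 count among the 5 higher genes. INSM1, the SNAG-domain factor of neuroendocrine cells, was at 14.5, 16.4 and 17.4 in H82 with ORY-1001, against 25.7, 24.1 and 21.7 in controls (log2 difference -0.54, limma, adjusted p = 0.00859). Neither SNAI1 nor INSM1, also named for small p, overlapped between treated and control H82 libraries, where 52.3% of all tested genes did not overlap. In the controls, OVOL2 was 73.7-fold higher, ZEB1 14.3-fold lower and SNAI1 2.54-fold lower in H211 than in H82.

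**Figure D5:**
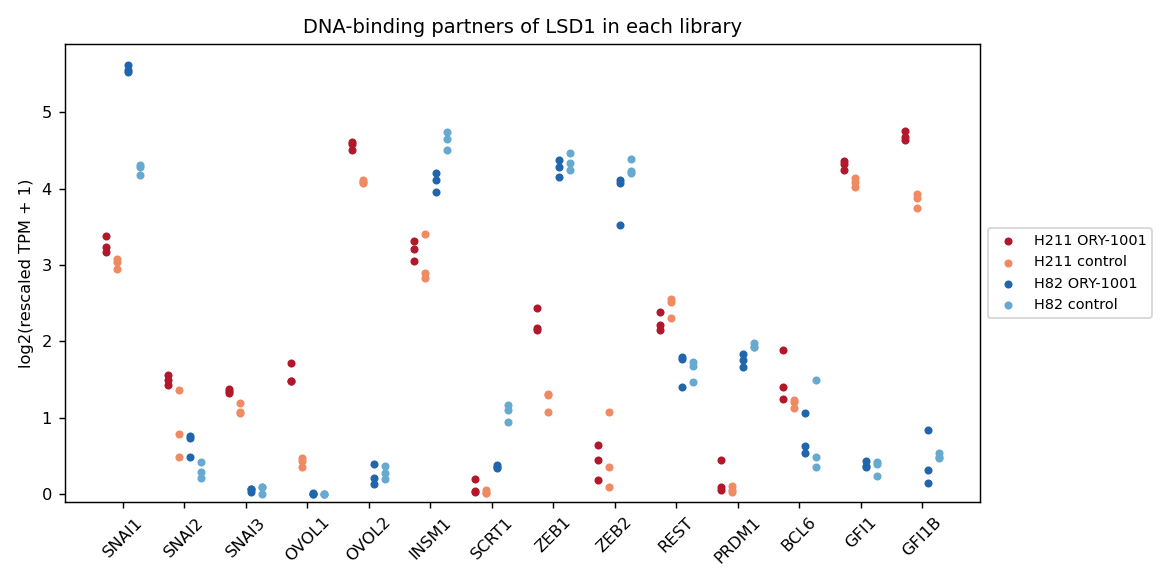
Level of DNA-binding factors that bind LSD1 or CoREST or carry a SNAG-type N terminus. Values are log2(rescaled TPM + 1) in each library, 4 groups of 3 points a gene, at 0 where a gene is not detected. In H211, OVOL1, ZEB1, OVOL2, SNAI2 and GFI1B are higher with ORY-1001, SNAI1 is higher in both lines, and INSM1 is lower in H82.

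Of 29 listed subunits of the other complexes that use class I deacetylases, 27 were tested; 0 were higher and 5 lower in H211, with a median log2 difference of -0.08, and 4 were higher and 10 lower in H82, with a median of -0.11. The shares called, 18.5% in H211 and 51.9% in H82, lie near the 18.6% and 43.0% of all genes. RBBP4, a histone chaperone shared by NuRD and SIN3 complexes, was at 349, 348 and 344 in H82 with ORY-1001, against 465, 488 and 485 in H82 controls, a log2 difference of -0.46 (limma, adjusted p = 1.53e-06). MTA3, a NuRD subunit, was lower in both lines, 1.21-fold in H211 and 1.52-fold in H82. TBL1X, of the NCOR complexes, was 1.42-fold lower in H82 with ORY-1001. In H211 the SIN3 subunits SAP130 and SIN3A were 1.31-fold and 1.33-fold lower with ORY-1001. Between controls, TBL1X was 65.3-fold lower, GPS2 2.29-fold lower and MTA3 2.23-fold higher in H211 than in H82. The list had 9 higher and 13 lower of 27, where 39.7% of all genes were higher and 40.8% lower. Its share called, 81.5%, lies near the 80.5% of all genes.

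Of 17 genes described as repressed by GFI1 or GFI1B in blood cells, 11 were tested. In H211 3 were higher and 1 lower, with a median of 0.20. In H82 2 were higher and 1 lower, with a median of 0.14. The share called was 36.4% in H211, where 18.6% of all genes were called, and 27.3% in H82, where 43.0% were. ID2, an inhibitor of bHLH factors, was at 121, 117 and 120 in H211 with ORY-1001, against 92.2, 98.3 and 91.1 in H211 controls (log2 difference 0.35, limma, adjusted p = 0.00816). In H82 ID2 was at 11.2, 11.3 and 11.6 with ORY-1001, against 7.33, 7.45 and 5.77 in controls (log2 difference 0.66, limma, adjusted p = 3.58e-05). CSF1, a macrophage growth factor, was 2.01-fold higher and MEIS1, a homeobox factor, 1.80-fold lower in H211 with ORY-1001. CSF1 reached 1 in all treated H211 libraries and otherwise only in a single H211 control library. It thus passed the filter only with the group where it was high, and its call is no support of its own. It counts among the 3 higher genes in H211. In H82 SOCS1, a cytokine signalling inhibitor, was at 0.346, 0.408 and 0.340 with ORY-1001, against 0.0405, 0.0288 and 0.0647 in controls. SOCS1 was thus under 1 throughout H82 and passed the filter through H211 alone. GFI1B was 1.84-fold higher in the treated H211 libraries, in which 3 of these 11 genes and 8.95% of all genes were higher. A link between GFI1B and these genes was not tested.

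Markers of cell state moved beside the recruiters. In H211, 0 of 11 tested tuft cell markers were higher and 5 lower with ORY-1001, and their summed level was 2002 to 2025 with ORY-1001 and 2725 to 2786 in controls. Of these markers 45.5% were called in H211, where 18.6% of all genes were. PTGS1, a cyclooxygenase, was at 0.904, 0.892 and 0.970 in H211 with ORY-1001, against 12.1, 12.2 and 10.4 in H211 controls. PTGS1 reached 1 only in these control libraries. It thus passed the filter through the group where it was high, and its call is no support of its own. It counts among the 5 lower markers. CHAT, which makes acetylcholine, was 4.18-fold lower and BMX, a tyrosine kinase, 1.85-fold lower in H211 with ORY-1001. GFI1B, known from mouse tuft cells, was higher in treated H211, where 5 of 11 tested tuft cell markers were lower and the rest were not called. A link between them was not tested. In H82, 0 of 11 tested neuroendocrine markers were higher and 10 lower with ORY-1001, with a median log2 difference of -0.54, among them SYT1 at 1.91-fold, NCAM1 at 1.83-fold and DLL3 at 1.42-fold lower. In H211, 2 of 11 neuroendocrine markers were higher, NCAM1 1.25-fold and RTN1 1.45-fold, and 1 was lower, SYT1 1.14-fold. The share of neuroendocrine markers called was 27.3% in H211 and 90.9% in H82, where 18.6% and 43.0% of all genes were called. Among 8 stromal and endothelial markers, 2 were tested, and DCN was at 68.1, 62.1 and 61.5 in H211 with ORY-1001, against 3.91, 3.95 and 4.42 in H211 controls. Their summed level was 64.9 to 71.4 in H211 with ORY-1001, 6.10 to 7.18 in H211 controls, 2.01 to 4.62 in H82 with ORY-1001 and 1.78 to 3.18 in H82 controls. The part of these shifts in the members' values was not tested.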

How the data were processed

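RNA of the H211 and H82 lines was sequenced in 4 groups of 3 libraries, which the sample descriptions name. Oligo(dT) beads selected the mRNA for NEBNext Ultra II libraries, per the labels' protocols. The submitters' processing notes name hg38 as build, Salmon 1.1.0 and sleuth 0.30.0, and also STAR 2.5.2b, Subread 1.5.2 with featureCounts, Trimmomatic 0.36, DESeq2 and R 4.0.4, with no role or order. The sources used here do not give the annotation release. Per symbol, the deposited signal is a TPM-like value that the authors appear to have rescaled between libraries, since column totals differ. Tests planned for TPM were used on it. Depth is unknown, so no counting error can be given.

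Values were taken as log2(value + 1), which understates changes of low genes, and the 15456 symbols at 1 or more in at least 3 libraries were fitted with limma 3.58.1 in R 4.3.3 (4 group means, eBayes with a trend, Benjamini-Hochberg over all genes). Folds are ratios of group means. Shares were tested with exact permutations. On simulated data, 10 sets per line with 200 genes changed, 74.5% of 1.5-fold and 95.1% of 3-fold changes were recovered in H211 with 5.34% false calls among a median of 15417.5 genes, and 72.6%, 95.2% and 5.32% in H82 among a median of 15411.5. Alternatives changed the pseudocount, filter, scaling, variance prior, library weights, replicate block and libraries. The members and gene lists were chosen with earlier results of these data known. Every member and KDM1A were named. For each member, the 2 genes of highest Pearson r with a mean of at least 5 in some group were added. From each list, up to 3 called genes of smallest p in each drug comparison and between controls were added, with HBG2, MPO, LYZ and TYROBP. Some are given by counts alone. Some genes the rule takes are not reported here. Exon overlaps come from GENCODE 29, which need not be the authors' annotation, and promoters from RefSeq on GRCh38.p14, which held 8 of 9 members.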

Additional observations from a re-analysis of the deposited data

Results flagged for a closer look

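The response to ORY-1001 in H211 minus that in H82 was called by limma for 5 of 9 members, where 32.1% of all genes were called. On the log2 scale it was 0.90 for GFI1B, 0.31 for PHF21A, 0.22 for HDAC2, -0.22 for HDAC1 and -0.26 for HMG20B. GFI1B was under 1 in every H82 library, so its value largely restates the H211 response. The shift of the HDAC2 share of the deacetylase sum differed by 7.11 percentage points.

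Of the other named genes, the difference was called above 0 for DCN (3.63), NCAM1 (1.17), OVOL1 (1.14), ZEB1 (1.096), RTN1 (0.99), SYT1 (0.72), INSM1 (0.69), CSF1 (0.61), OVOL2 (0.51), TBL1X (0.50), CTBP1 (0.50), DLL3 (0.49), ZMYM3 (0.42), RBBP4 (0.38) and MTA3 (0.31). It was called below 0 for MPO (-4.42), PTGS1 (-2.41), CHAT (-1.40), SNAI1 (-1.07), MEIS1 (-0.74), BMX (-0.74), ALOX5AP (-0.64), ZMYM2 (-0.34) and ID2 (-0.31). OVOL1, OVOL2, CSF1 and PTGS1 were under 1 in every H82 library, and TBL1X was under 1 in every H211 library. Adding 1 flattens any change at such levels, so the values of these genes largely restate the response of the other line. ID2 was higher with the drug in both lines, more so in H82. MTA3 was lower with the drug in both lines, more so in H82. MPO was above 8 in all 3 treated H82 libraries and in 1 library of each H211 group. It passed the filter only with the treated H82 libraries, so its call is no support of its own.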

How the results depend on the processing

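Over 45 pairs of a member and a comparison, 1114 alternative values were computed: 1053 kept direction and side of the threshold, 35 lost a call, 6 gained one and 20 changed direction. The other named genes gave 1657 values, of which 1559 kept both, 78 lost a call, 2 gained one and 18 changed direction. When 1 library was left out, calls were lost in 10 fits for POU2F3 in H82, 9 for ZMYM2 and 7 for SYT1 in H211, 8 for the PHF21A and 5 for the HMG20B difference between responses, and 5 each for PTGS1 and PRTN3 in H82. The cause of the changes below was not tested. Depth is unknown, so what it limits cannot be given.

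Without the 4 libraries that differed in blood transcripts from their group (chosen after seeing the data, as were totals without mitochondrial genes), 559 genes were called in H211 and 2899 for the difference between responses, against 2868 and 4956, with fewer libraries. Members called in H211 numbered 1 with a pseudocount of 0.1. For the difference between responses, 3 of 9 members were called with no filter, scaled to a total of 1000000 and without the 4 libraries, and 3 to 5 when 1 library was left out (3 without H211 ORY-1001 replicate 1, H211 control replicate 3 or H82 control replicate 1). Quantile normalization gave 3296 higher and 3304 lower genes in H82 and 2507 and 2495 for the difference, and totals without mitochondrial genes 2229 and 2557 for the difference and 6780 and 5589 between treated lines. Leaving out 1 library gave a mean GFI1B share shift of -7.95 to 3.91 points (-1.26 with all), and the log2 ratio 0.25 (0.253). The RCOR2 share difference ran from 3.06 to 4.43 points and the GFI1B share difference from 14.4 to 38.1 points, the last without H82 ORY-1001 replicate 3 (exact permutation p = 0.005). Only the groups compared gives no value for the difference between responses.

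The numbers did not pair the libraries: correlations of same-numbered deviations ran from -0.0805 to 0.0449, under 0.1. With the replicate block, 2497 genes were called in H211, 6429 in H82, 4701 for the difference, 12401 between controls and 12353 between treated lines. PHF21A lost its call for the difference (limma, adjusted p = 0.0664), and members called numbered 2, 3, 4, 8 and 9. The mean share shifts were 0.947, 0.248 and -1.26 points, as without it.

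Some members changed sign. In H211, without the 4 libraries, RCOR1 was at 0.00412, HDAC2 at 0.0217 and PHF21A at 0.0223; RCOR2 was at -0.00245 scaled to 1000000 and -0.0180 with totals without mitochondrial genes; HMG20B ran from -0.0744 to 0.0181 with 1 library left out. In H82 RCOR1 was at 0.0268 by quantile normalization and -0.104 to 0.0141, RCOR3 -0.0308 to 0.0765, GFI1 -0.0204 to 0.0706 and GFI1B -0.270 to 0.0791 with 1 library left out. For the difference RCOR1 was at 0.0652 without the 4 libraries and -0.0907 to 0.0412 with 1 left out. HDAC2 between controls was at 0.0992 scaled to 1000000 (limma, adjusted p = 0.0491) and 0.152 with totals without mitochondrial genes, and HDAC1 between treated lines, called at -0.13 in the fit of all 12 libraries, at 0.00381 with those totals. KDM1A in H211 was at -0.0176 scaled to 1000000, -0.0315 by quantile normalization, -0.0111 without the 4 libraries and -0.0336 without mitochondrial genes. In H82 KDM1A was at -0.0430 by quantile normalization, and the difference at 0.0115, or -0.0540 to 0.000892 with 1 left out. Between controls KDM1A was at -0.0761 by quantile normalization, -0.00461 with array weights and -0.00853 to 0.0120 with 1 left out. Between treated lines it was at 0.0539 scaled to 1000000, 0.0179 by median of ratios, 0.114 without mitochondrial genes and -0.0516 to 0.00333 with 1 left out.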

Other observations

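HDAC2-AS2, an antisense RNA, overlaps 69 of the 15461 exonic bases of HDAC2 (0.446%) in GENCODE 29 and was at no more than 1.49 rescaled TPM in any library. The HDAC1 pseudogenes HDAC1P1 and HDAC1P2 were listed at 0 and at no more than 0.0816.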
